A study of Mus musculus with 12 samples.

Results

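Pre-basophils and mature basophils of the mouse bone marrow were compared by bulk RNA-seq. The comparison used 6 of the 12 libraries of the series, 3 of pre-basophils (labelled BM immature basophil) and 3 of BM mature basophils. All animals were wild-type C57BL/6J mice, untreated as far as the labels say, and their age is not given there. Pre-basophils were sorted as CD34-CLEC12AhiCD9lo cells and BM mature basophils as CD34-CLEC12AloCD9hi cells. The other 6 libraries, 3 of CD34+ basophil progenitors (BaPs) of the bone marrow and 3 of mature basophils of the spleen, entered the fit to share the estimate of the spread, and their mean levels are given where they help to place a value. Each library was made from the sorted cells of pooled animals, so that the replicates are pools and not single mice. Of 32227 genes in the table, 15083 passed the filter on low counts and were tested.

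Basophils are rare granulocytes that arise in the bone marrow and circulate as mature cells. They bind IgE through the receptor FcεRI, and antigen that cross-links the bound IgE makes them release granule contents, lipid mediators and cytokines such as IL-4. Mouse basophil granules carry the serine proteases mMCP-8 and mMCP-11, encoded by Mcpt8 and Prss34. Granulocytes in general make their granule proteins and divide before they mature, and mature cells rely on stored proteins and on receptors for chemokines, complement and cytokines.

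The transcripts of the sorted surface proteins were read first. Clec12a, an inhibitory C-type lectin receptor, stood at 250, 213 and 243 CPM (read counts relative to library size, with sizes scaled by TMM, the trimmed mean method) in the pre-basophil libraries and at 39.1, 37.1 and 30.7 CPM in the BM mature libraries. The groups did not overlap, and the level was 6.63-fold higher in pre-basophils (log2 fold change 2.73 ± 0.29 SE, adjusted p = 1.62e-05). Cd9, a tetraspanin, stood at 444, 400 and 453 CPM in pre-basophils and at 631, 539 and 619 CPM in BM mature basophils, again without overlap but only 1.38-fold lower (log2 fold change -0.46 ± 0.13, adjusted p = 0.0171). The Cd9 call was lost without BM mature replicate 1 or 3 or pre-basophil replicate 1 or 2, with adjusted p up to 0.0838, and with library size alone or DEGES scaling (which sets aside called genes). Both genes were used for the sort and so give no independent evidence of a difference. Kit, the stem cell factor receptor that the gates excluded, was low in both groups at 2.62 ± 0.914 and 0.502 ± 0.437 CPM (mean ± SD, n = 3), where 3 counts are worth 0.48 to 0.955 CPM. It was nevertheless called higher in pre-basophils (log2 fold change 2.33), a call lost without BM mature replicate 1 or 3 or pre-basophil replicate 1 or 2 (adjusted p up to 0.179), by limma-voom and with upper-quartile scaling. Cd200r3, a basophil receptor used for the gate, was high in both groups at 945 ± 37.7 and 1118 ± 33.8 CPM and was not called (adjusted p = 0.371), but a fit of the 6 libraries with the replicate number as a block called it lower in pre-basophils (log2 fold change -0.26, adjusted p = 0.000815), as did the fit without BaP replicate 3 (adjusted p = 0.0338). The basophil transcription factor gene Gata2, which was not used for the sort, was likewise high in both, at 1900 ± 38.2 and 2262 ± 230 CPM. The level of Cd200r3 in both groups follows from the gate and gives no independent evidence of identity. Of the 7 genes on the list of sort markers, 3 were called higher and 2 lower, falling to 1 and 1 without BM mature replicate 1 or 3 or pre-basophil replicate 1 or 2.

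Library totals ran from 3596108 to 6329357 counts and 21911 to 23841 genes had at least 1 count in the 6 libraries. Libraries of 1 group differed by more than sampling noise (chi-square per degree of freedom 4.31 to 8.39), a measure that counts amplified reads as independent. The root mean square log2 difference was 0.464 to 0.548 between libraries of 1 group and 0.823 to 0.944 between groups. Of the libraries that entered only the fit, BaP replicate 3 stood apart, with a scaling factor of 1.3 and 3.53% mitochondrial counts against 1.75% and 1.82% in the other BaP libraries. A fit without it kept every call of the named genes tested in it, and is cited for some genes and lists below. The fits that left out 1 of the 6 libraries all kept BaP replicate 3. Because the libraries are sums over many cells, fewer cells of a type and less RNA per cell cannot be told apart in any value below.

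Of the 15083 genes, 4112 were called at adjusted p under 0.05 (27.3%), 2460 of them higher in pre-basophils (16.3%) and 1652 lower (11.0%). The counts of each list below are to be read beside these shares. At least 2-fold change was reached by 1840 called genes (12.2%), and here the 2 directions differed in shape: 1330 were higher and 510 lower. At least 4-fold change was reached by 439 higher genes and 56 lower ones, and 8-fold by 126 and 9. All 3 pre-basophil libraries lay above all 3 BM mature libraries for 3847 genes (25.5%) and below them for 3239 genes (21.5%). With the replicate number as a block in a fit of the 6 libraries alone, 6225 genes were called, 3277 higher and 2948 lower. The split between the directions also depended on the scaling: 59.8% of the calls were higher in pre-basophils with TMM, but 82.5% with library size alone (3703 higher and 784 lower), under which the median log2 fold change over the tested genes was 0.22 in place of 0.00. Without BaP replicate 3, 5251 genes were called, 2921 higher and 2330 lower, and 4087 of the 4112 were among them. A test against a 1.5-fold change called 1219 genes, 75.1% of them higher.

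**Figure D1:**
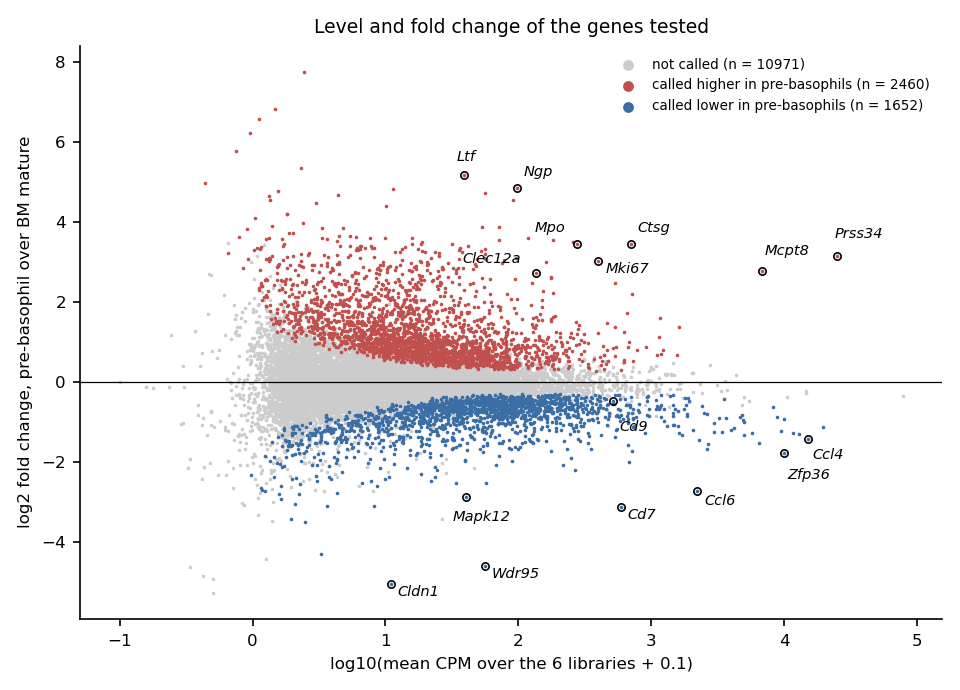
Each point is 1 of the 15083 genes tested, placed by log10 of its mean CPM over the 6 libraries plus 0.1 and by its log2 fold change of pre-basophil over BM mature libraries. Red and blue points were called higher (2460) or lower (1652) in pre-basophils, grey points were not called, and circles mark named genes. The red points reach larger fold changes at middle and low levels, and blue points prevail at the highest levels apart from Prss34 and Mcpt8.

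The genes that fell in pre-basophils lay among the most abundant transcripts. With genes ranked by mean level and cut into 3 equal parts, 22.4% of the top part were called lower and 18.1% higher, whereas in the middle part 6.98% were lower and 21.6% higher. Summed over genes, those called lower took 26.6% of the scaled counts of pre-basophils and 50.9% of those of BM mature basophils. Those called higher held 19.7% and 7.71%. Among the 10 most abundant genes called lower were the chemokine genes Ccl3 and Ccl4, the immediate-early genes Fosb, Jun, Junb, Egr1 and Zfp36 and the noncoding RNA gene AC160336.1. Among the 10 most abundant called higher were Prss34, Mcpt8, Cpa3, Ptma and Xist.

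Among the basophil granule proteases the difference was large. Prss34 held more counts than any other gene called higher, with 49584, 42584 and 43264 CPM in the 3 libraries against 5708, 5689 and 3798 CPM in BM mature basophils. Every pre-basophil library thus held several times the level of every mature one, and the gene was 8.91-fold higher (log2 fold change 3.16 ± 0.31, adjusted p = 1.16e-05). Mcpt8 stood at 12340, 10887 and 12449 CPM against 1828, 1738 and 1627 CPM and was 6.87-fold higher (log2 fold change 2.78 ± 0.25, adjusted p = 6.43e-06). In BaPs they stood at 48653, 45396 and 17009 CPM and at 11980, 10618 and 5008 CPM, and in mature basophils of the spleen they averaged 921 and 653 CPM. Prss34 lies on chr17:25298394-25300165 (plus strand) and Mcpt8 on chr14:56082166-56085273 (minus strand) of GRCm38 in the GENCODE annotation. The 150 bases before the start of each in RefSeq (GRCm38.p6) are shown because both genes differed in the same way, at chr17:25298244-25298393 on the plus strand and chr14:56085198-56085347 on the minus strand, 5′ to 3′, with a GATA motif (AGATAA) in capitals.
Prss34: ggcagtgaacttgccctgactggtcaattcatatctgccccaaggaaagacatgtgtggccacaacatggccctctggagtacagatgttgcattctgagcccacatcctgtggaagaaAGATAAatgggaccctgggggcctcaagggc
Mcpt8: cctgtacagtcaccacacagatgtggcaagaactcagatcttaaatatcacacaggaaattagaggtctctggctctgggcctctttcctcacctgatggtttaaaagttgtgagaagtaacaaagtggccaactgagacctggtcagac
The motif stood 31 to 26 bases before the start of Prss34, and Mcpt8 held no match to any of the 8 motifs searched in the 250 bases before its start. AGATAA was found on either strand in 6.92% of the 12527 windows of tested genes, so a match is common and is a description only.

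Of 13 basophil identity genes, 5 were called higher and 1 lower, 3 higher without BM mature replicate 1 or 3 or pre-basophil replicate 1, 7 higher and 5 lower in a fit of the 6 libraries with the replicate block, and 2 lower without BaP replicate 3. The whole list of granule proteases and matrix genes moved less uniformly. Of 19 members tested, 8 were called higher and 1 lower, with a median log2 fold change of 0.60 against 0.00 over all genes. Cpa3, the carboxypeptidase shared with mast cells, stood at 1929, 1658 and 1705 CPM in pre-basophils and 619, 566 and 548 CPM in BM mature basophils, 3.05-fold higher (adjusted p = 0.000561). Ctsg, cathepsin G, was higher by 11.0-fold, at 1294 ± 161 against 118 ± 36.6 CPM (adjusted p = 1.69e-05). Ctsd, a lysosomal aspartic protease, went the other way, with 515, 548 and 581 CPM against 905, 1046 and 1043 CPM (log2 fold change -0.86 ± 0.12, adjusted p = 0.000136). Srgn, the proteoglycan core that packs granule proteases, was abundant in both groups at 4560 ± 646 and 6260 ± 1374 CPM and overlapped between them (adjusted p = 0.136). In the fit of 6 libraries with the replicate block it was called lower (log2 fold change -0.46, adjusted p = 1.75e-06), and that fit called 4 members of the list lower. Without BaP replicate 3 Srgn was called lower as well (adjusted p = 0.02), and 3 members were. Summed, the list held 7.26%, 6.19% and 6.57% of the scaled library size in the pre-basophil libraries and 1.73%, 1.46% and 1.52% in the BM mature libraries. The groups did not overlap, and Prss34 and Mcpt8 held most of the sum in pre-basophils.

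**Figure D2:**
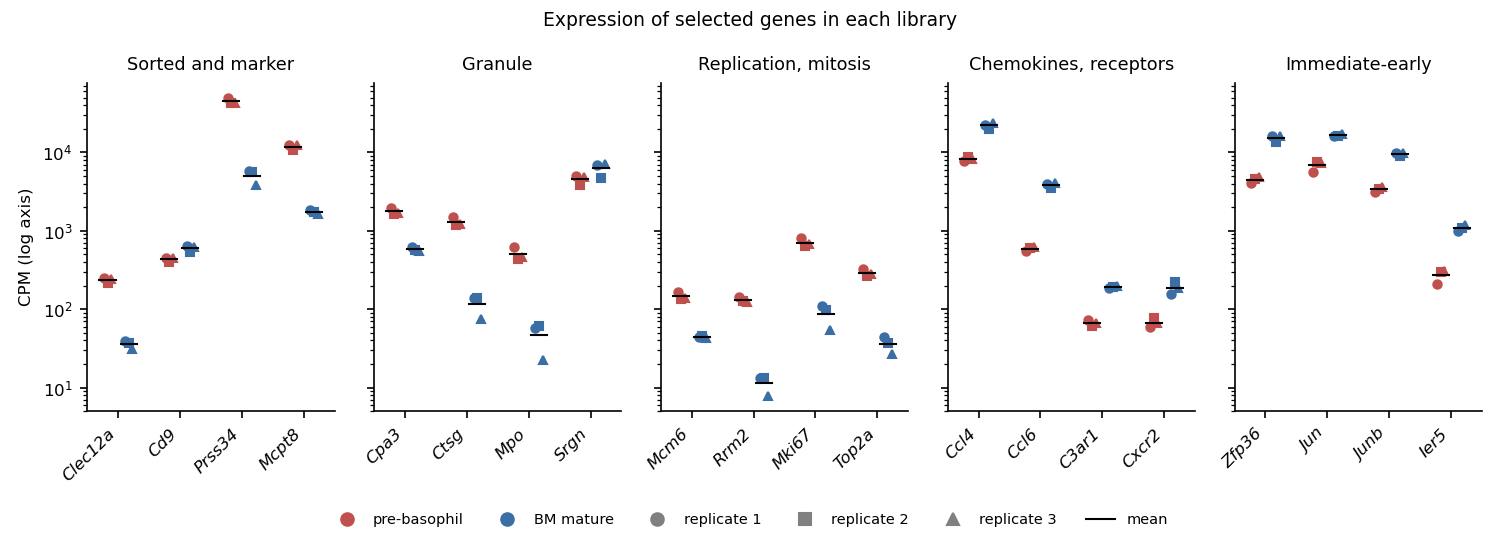
CPM (log axis) of 20 genes in the 3 pre-basophil libraries (red) and the 3 BM mature libraries (blue), with 1 symbol shape for each replicate and a black line at the mean of the group. The red points lie above the blue ones for Clec12a, both basophil proteases, Cpa3, Ctsg, Mpo and the replication and mitosis genes, and below them for Cd9, the chemokines, receptors and immediate-early genes, while those of Srgn overlap.

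The receptor for IgE was split between its subunits. Fcer1a, the IgE-binding α chain, stood at 1696, 1544 and 1483 CPM in pre-basophils and 934, 917 and 856 CPM in BM mature basophils, 1.74-fold higher without overlap (log2 fold change 0.80 ± 0.25, adjusted p = 0.0294). Ms4a2, the β chain, was 1.75-fold higher at 992 ± 23.3 against 568 ± 43.9 CPM (adjusted p = 0.018). Neither call was firm while BaP replicate 3 was in the fit. That of Fcer1a was lost when any 1 of the 6 libraries was left out, with adjusted p up to 0.104. That of Ms4a2 was lost without BM mature replicate 1 or 3 or pre-basophil replicate 1, with adjusted p up to 0.0683. BaP replicate 3 held 537 CPM of Fcer1a against 1423 and 1291 CPM in the other BaP libraries, and 413 CPM of Ms4a2 against 954 and 950 CPM. Without BaP replicate 3 both genes were called higher (adjusted p = 4.29e-06 and 1.06e-06). The γ chain gene Fcer1g stood at 1586 ± 78.1 and 1646 ± 115 CPM and was not called (adjusted p = 0.852). FCERIA protein served to gate basophils elsewhere in the study, and its gene is on the list of sort markers here.

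Downstream of the receptor the called genes were mostly lower. Of 45 genes of IgE receptor signalling tested, 3 were called higher and 12 lower, against 16.3% and 11.0% over all genes. Their median log2 fold change of -0.19 turned to 0.03 when libraries were scaled by size alone. Plcg1, a phospholipase C that acts on the membrane lipid PIP2, stood at 7.83, 13.1 and 17.6 CPM in pre-basophils and 24.8, 25 and 21.9 CPM in BM mature basophils (log2 fold change -0.86 ± 0.23, adjusted p = 0.0119). Itpr2, a calcium channel of the endoplasmic reticulum opened by inositol trisphosphate, stood at 76.1 ± 5.21 and 126 ± 13.7 CPM (log2 fold change -0.73 ± 0.15, adjusted p = 0.00311). Rac2, a small GTPase of blood cells, stood at 1018 ± 53.9 and 1166 ± 32.6 CPM and was not called (adjusted p = 0.241), though the 6-library fit with the block called it lower (adjusted p = 0.00477). That fit called 6 members higher and 22 lower. With library size alone, 5 were higher and 5 lower, and the calls of Plcg1 and Itpr2 were lost. Leaving out single libraries gave 0 to 2 higher (0 without BM mature replicate 1 or pre-basophil replicate 1, 1 without BM mature replicate 2 or 3) and 9 to 11 lower.

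The genes of release and of the mediators were called in numbers within a few members of the shares over all genes (16.3% higher and 11.0% lower). Of 32 genes of the exocytosis machinery, 4 were called higher and 6 lower. Sytl3, a synaptotagmin-like protein that binds Rab27, was 2.56-fold lower at 193 ± 29.3 against 493 ± 84.6 CPM (adjusted p = 0.00025), and Vamp7, a vesicle SNARE, was 2.16-fold higher at 16.6 ± 1.05 against 7.59 ± 1.05 CPM (adjusted p = 0.00148). Cd63, a tetraspanin of the granule membrane, stood at 1348 ± 67.7 and 1175 ± 59.5 CPM and was called only in the 6-library fit with the block (log2 fold change 0.18, adjusted p = 0.015). Single libraries decided several of these calls: 2 members were higher without pre-basophil replicate 3 or any 1 BM mature replicate, 3 were lower without BM mature replicate 1 or pre-basophil replicate 1 or 2, and 2 were lower without pre-basophil replicate 3. With library size alone 8 were higher and 1 lower, and in the 6-library fit with the block 9 were lower. Of 18 genes of histamine and lipid mediators, 4 were called higher and 2 lower. Hdc, which makes histamine, varied between replicates more than between groups, with 1904, 1130 and 1740 CPM against 2810, 1476 and 2452 CPM (adjusted p = 0.211). Within each replicate number the pre-basophil value was the lower one, and the 6-library fit with the block called Hdc lower (log2 fold change -0.50, adjusted p = 1.3e-07). Lta4h, the enzyme that makes leukotriene B4, was higher at 76.4 ± 1.72 against 42.9 ± 1.66 CPM (log2 fold change 0.83 ± 0.12, adjusted p = 0.000158), and Ptgs2, cyclooxygenase 2, lower at 424 ± 66.2 against 805 ± 226 CPM (log2 fold change -0.92 ± 0.21, adjusted p = 0.00491). Without pre-basophil replicate 1, 1 member of the mediator list stayed called higher, and without BM mature replicate 1 or 3, 2 did.

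The cell cycle set the groups apart most evenly. Of 48 DNA replication genes tested, 45 were called higher in pre-basophils and 0 lower by edgeR, and of 55 mitosis genes 53 were higher and 0 lower. Median log2 fold changes were 2.07 and 2.81. The 5 members not called were Gins3, Rfc1, Rfc2, Cdc25c and Pttg1, named after their values were seen, and Pttg1 alone of them had a fold change below 0 (log2 fold change -0.45). The counts of higher members held at 43 to 45 and 53 to 54 when each library was left out in turn. Over all alternatives 0 replication genes and at most 1 mitosis gene were called lower, the latter in the 6-library fit with the block among others.

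Replication genes covered each step of copying DNA. Mcm6, part of the replicative helicase, stood at 166, 136 and 140 CPM in pre-basophils and 43.9, 45.8 and 43.4 CPM in BM mature basophils, 3.31-fold higher (adjusted p = 2.66e-05). Pcna, the sliding clamp of the polymerases, was 2.90-fold higher at 262 ± 37.6 against 90.2 ± 8.08 CPM (adjusted p = 4.81e-05). Rrm2, which makes deoxynucleotides, stood at 144, 126 and 124 CPM against 13.4, 13.3 and 7.68 CPM, 11.7-fold higher (log2 fold change 3.55 ± 0.34, adjusted p = 8.51e-06). Gins1, another helicase component, had the largest fold change of the list (log2 fold change 3.85 ± 0.55, adjusted p = 0.000198), on 6.07 ± 1.88 against 0.399 ± 0.348 CPM. Rfc2, a subunit of the clamp loader, stood at 282 ± 13.7 and 269 ± 9.41 CPM and was not called (adjusted p = 0.799).

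Genes of chromosome segregation differed more. Mki67, the proliferation marker Ki-67, stood at 797, 644 and 681 CPM in pre-basophils and 109, 97.9 and 54.1 CPM in BM mature basophils, 8.17-fold higher (log2 fold change 3.03 ± 0.27, adjusted p = 6e-06). Top2a, the topoisomerase that untangles chromosomes, stood at 323, 262 and 278 CPM against 44.6, 36.6 and 27 CPM, 8.04-fold higher (adjusted p = 1.56e-06). BM mature replicate 3 was the lowest of the 6 libraries in both genes. Sgo1, which guards cohesion at the centromere, was 12.7-fold higher at 9.76 ± 1.03 against 0.864 ± 0.804 CPM (adjusted p = 0.000507), and Aurka, a spindle kinase, 12.5-fold higher at 11.1 ± 2.39 against 0.795 ± 0.638 CPM (adjusted p = 6.79e-05). For both, most BM mature values were close to the level of 3 counts. Smc4, a condensin subunit, changed less, 2.07-fold (199 ± 17.7 against 96.6 ± 2.55 CPM, adjusted p = 0.00025). In BaPs Mki67 stood at 804, 638 and 431 CPM and Top2a at 421, 310 and 239 CPM, and in mature basophils of the spleen they averaged 23.4 and 12.1 CPM. Summed, the mitosis list took 0.388 ± 0.0304% of the scaled counts of pre-basophils and 0.0701 ± 0.0115% of those of BM mature basophils, without overlap.

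Promoters of these genes are shown because the 2 lists moved together. The printed genes have the largest fold changes on the lists among those with a motif in the window, and motifs are in capitals: CCAAT, the box bound by NF-Y, and TTTGAA, the cell cycle genes homology region (CHR) bound by the MuvB complex. All are the 150 bases before the RefSeq start on GRCm38.p6, 5′ to 3′. They lie at chr2:172370571-172370720 (minus strand, Aurka), chr12:24708104-24708253 (plus strand, Rrm2), chr17:56304163-56304312 (plus strand, Uhrf1) and chr5:45669775-45669924 (plus strand, Ncapg, a condensin subunit).
Aurka: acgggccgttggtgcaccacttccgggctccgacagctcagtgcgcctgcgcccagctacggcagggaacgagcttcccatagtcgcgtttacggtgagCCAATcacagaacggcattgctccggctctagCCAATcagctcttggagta
Rrm2: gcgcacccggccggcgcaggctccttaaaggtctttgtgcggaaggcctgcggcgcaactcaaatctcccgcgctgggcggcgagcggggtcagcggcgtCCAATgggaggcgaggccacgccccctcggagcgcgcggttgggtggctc
Uhrf1: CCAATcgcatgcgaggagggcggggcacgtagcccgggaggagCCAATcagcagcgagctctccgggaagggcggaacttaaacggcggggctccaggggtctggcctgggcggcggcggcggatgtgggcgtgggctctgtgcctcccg
Ncapg: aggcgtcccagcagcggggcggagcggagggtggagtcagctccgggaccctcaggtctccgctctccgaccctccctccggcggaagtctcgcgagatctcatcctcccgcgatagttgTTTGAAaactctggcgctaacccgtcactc
The CHR letters stood 30 to 25 bases before the start of Ncapg, and the 2 CCAAT boxes of Aurka 51 to 47 and 19 to 15 bases before its start. Over all 250 bases before the start and both strands, TTTGAA was found in 42% of the 50 windows of the mitosis list (46 of 55 genes matched by symbol), in 12.8% of the 47 windows of the DNA replication list (39 of 48 genes) and in 12.3% of the 12527 windows of all tested genes. CCAAT was found in 70%, 57.4% and 35.7% of the same windows. The E2F motif TTTCCCGC was found in 0 windows of the mitosis list, in 8.51% of those of the replication list and in 1.66% of all, and a second E2F motif, TTTGGCGC, in 4%, 6.38% and 0.71%. Of 15083 tested genes 9919 had a RefSeq window, so that the shares over all genes leave out the rest. In the windows of all genes called higher and lower, TTTGAA was found in 14.5% and 10.5%, CCAAT in 42.5% and 31.1% and TTTCCCGC in 3.29% and 0.817%. The lists group genes by function, so their motif shares are a description only.

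**Figure D3:**
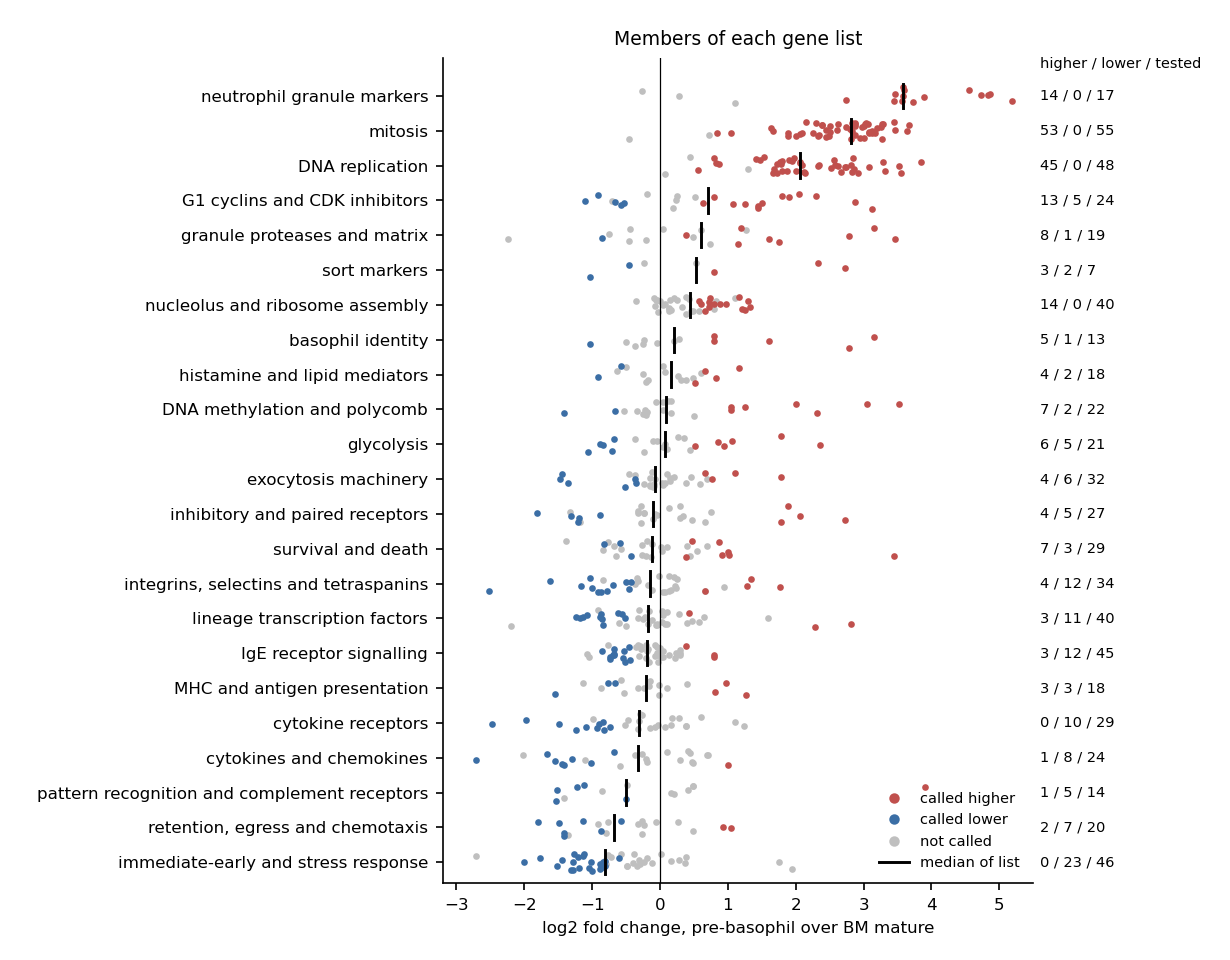
Each point is a tested member of a gene list, placed by its log2 fold change of pre-basophil over BM mature libraries. Red and blue members were called higher or lower in pre-basophils, grey ones were not called, the black bar is the median of the list, and the numbers at the right count members called higher, called lower and tested. The DNA replication (45 of 48) and mitosis (53 of 55) lists are nearly all red, and the immediate-early list has 23 blue members and 0 red.

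Genes that control entry into the cell cycle went both ways. Of 24 G1 cyclins and cyclin-dependent kinase inhibitors tested, 13 were called higher and 5 lower. The cyclin E genes Ccne1 and Ccne2, which start S phase, were 7.32-fold (6.72 ± 0.835 against 0.991 ± 0.796 CPM, adjusted p = 0.00134) and 8.76-fold higher (6.49 ± 0.458 against 0.712 ± 0.0655 CPM, adjusted p = 0.000402). The D cyclins went in opposite directions: Ccnd3 stood at 320, 332 and 315 CPM against 186, 209 and 165 CPM (log2 fold change 0.79 ± 0.14, adjusted p = 0.00092) and Ccnd2 at 43.9, 56.5 and 57.4 CPM against 94.2, 106 and 97 CPM (log2 fold change -0.91 ± 0.22, adjusted p = 0.00826), a call that scaling by library size alone ended. Btg2, an antiproliferative gene, was 2.14-fold lower at 831 ± 59.4 against 1782 ± 313 CPM (adjusted p = 9.26e-05), and its relative Btg1 1.57-fold lower at 1179 ± 34.7 against 1857 ± 214 CPM (adjusted p = 0.00075). Without BM mature replicate 2 or pre-basophil replicate 1, 3 members were called lower, and 2 were with library size alone.

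Among chromatin genes a few stood out. Of 22 genes of DNA methylation and polycomb, 7 were called higher and 2 lower, against 16.3% and 11.0% over all genes. Dnmt1 and Uhrf1, both called higher, were also counted on the DNA replication list. Uhrf1, which recruits the maintenance methyltransferase to copied DNA, stood at 34.7, 33.1 and 35 CPM in pre-basophils and 3.18, 3 and 2.81 CPM in BM mature basophils, 11.4-fold higher (log2 fold change 3.52 ± 0.23, adjusted p = 8.48e-07). Cbx2, a polycomb subunit, was 8.28-fold higher on low levels (2.86 ± 1.33 against 0.335 ± 0.157 CPM, adjusted p = 0.00317). Its relative Cbx7 and the methyltransferase gene Ezh1 were called lower (log2 fold changes -1.41 and -0.66, adjusted p = 0.0375 and 0.038), but 0 members stayed called lower when any 1 of the 6 libraries was left out or with library size alone, with adjusted p of Cbx7 and Ezh1 up to 0.124 and 0.146, and 7 were in the 6-library fit with the block and 4 without BaP replicate 3. The demethylase genes Tet2 (200 ± 13.4 and 230 ± 10.6 CPM) and Tet3 (86.4 ± 4.79 and 84.2 ± 7.01 CPM) were not called, though Tet2 was called lower in the 6-library fit with the block (log2 fold change -0.22, adjusted p = 0.00767). Of 40 genes of the nucleolus and ribosome assembly, 14 were called higher and 0 lower, with a median log2 fold change of 0.44. Their changes were small: Utp20 and Rrs1, both ribosome assembly factors, had the largest (log2 fold changes 1.32 ± 0.37 and 1.30 ± 0.31, adjusted p = 0.017 and 0.007), and the abundant Ncl and Npm1 were not called, at 203 ± 9.45 against 197 ± 18.5 CPM and 207 ± 8.46 against 213 ± 10.3 CPM. The Utp20 call was lost without BM mature replicate 3 or pre-basophil replicate 2, with adjusted p up to 0.066.

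Genes of neutrophil granules had the largest list median. Of 17 tested, 14 were called higher in pre-basophils and 0 lower, with a median log2 fold change of 3.58, and limma-voom called 9 higher, without Ltf, Camp, S100a8 and Chil3 among them. Those of the primary granules, made first in neutrophil development, were even between replicates: Mpo, myeloperoxidase, stood at 623, 441 and 459 CPM against 57.9, 61.1 and 22.3 CPM (log2 fold change 3.45 ± 0.41, adjusted p = 4.79e-05). Ms4a3, a membrane protein of granulocyte progenitors, stood at 252, 201 and 200 CPM against 19.7, 26.5 and 8.61 CPM (adjusted p = 2.49e-05). In BaPs Mpo stood at 1792, 1402 and 562 CPM and Ms4a3 at 449, 405 and 157 CPM.

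Those made later in neutrophils spread widely among the pre-basophil libraries and were highest in replicate 3. Ltf, lactoferrin, stood at 17.6, 58.2 and 150 CPM against 2.23, 0.751 and 3 CPM (log2 fold change 5.19 ± 1.03, adjusted p = 0.00207). Ngp, neutrophilic granule protein, stood at 62.9, 141 and 367 CPM against 2.55, 5.76 and 10.3 CPM (log2 fold change 4.86 ± 0.98, adjusted p = 0.0023). Camp, a cathelicidin, stood at 34.4, 91.8 and 198 CPM against 2.23, 2.25 and 6.93 CPM (log2 fold change 4.73 ± 0.95, adjusted p = 0.0023). S100a8 and S100a9, the subunits of calprotectin, averaged 175 ± 146 and 335 ± 251 CPM against 7.70 ± 4.38 and 28.6 ± 8.61 CPM, and Lcn2, lipocalin 2, 135 ± 56.5 against 9.22 ± 3.91 CPM. The groups did not overlap for any of these genes. In BaPs the values also rose with the replicate number. Ltf stood there at 7.17, 49.3 and 126 CPM, Ngp at 16, 106 and 401 CPM and Camp at 9.56, 69.3 and 208 CPM. The Chil3 call (22.1 ± 18.3 against 0.645 ± 0.909 CPM, adjusted p = 0.0138) was lost without BM mature replicate 1 or 2 or pre-basophil replicate 3, with adjusted p up to 0.0608. Summed, the list held 0.277%, 0.275% and 0.388% of the scaled library size in the pre-basophil libraries and 0.0326%, 0.0305% and 0.0207% in the BM mature libraries. It overlaps with the granule list by Ctsg, which stood at 1480, 1191 and 1211 CPM in the pre-basophil libraries. Ctsg and Mpo together held much of the sum in pre-basophils. Lyz2, the lysozyme gene of neutrophils and monocytes, was also highest in pre-basophil replicate 3 at 33, 60.1 and 136 CPM against 8.91, 4.51 and 8.24 CPM (log2 fold change 3.42 ± 0.55, adjusted p = 0.000455). Whether these transcripts came from pre-basophils or from other cells in the sorted pools was not tested.

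Chemokines and cytokines were among the genes that fell most in counts. Of 24 tested, 8 were called lower in pre-basophils and 1 higher. Ccl4, a C-C chemokine gene, stood at 7686, 8741 and 8344 CPM in pre-basophils and 22545, 19715 and 24070 CPM in BM mature basophils, 2.68-fold lower (log2 fold change -1.42 ± 0.13, adjusted p = 6.59e-06). Its neighbour Ccl3 stood at 7040, 8146 and 7347 CPM against 19187, 16270 and 19680 CPM, 2.45-fold lower (adjusted p = 2.98e-05). The C-C chemokine genes Ccl6 and Ccl9 fell further: Ccl6 stood at 559, 595 and 622 CPM against 3971, 3535 and 4080 CPM, 6.52-fold lower (log2 fold change -2.71 ± 0.28, adjusted p = 1.34e-05), and Ccl9 was 3.19-fold lower at 1253 ± 27.9 against 3992 ± 257 CPM (adjusted p = 1.77e-06). Csf1, the macrophage growth factor, was 2.02-fold lower at 1963 ± 350 against 3965 ± 987 CPM (adjusted p = 0.00238). Tnf alone was called higher, with 307, 294 and 328 CPM against 164, 138 and 158 CPM (log2 fold change 1.01 ± 0.23, adjusted p = 0.00456). Il4 and Il13, the type 2 cytokine genes, were singled out after their values were seen: Il4 stood at 118, 68.9 and 95.6 CPM against 123, 108 and 132 CPM, Il13 at 23.5 against 17.1 CPM on average, and both overlapped between the groups (adjusted p = 0.309 and 0.459). Within every replicate number Il4 was lower in pre-basophils and Il13 higher, and the 6-library fit with the block called Il4 lower (log2 fold change -0.41, adjusted p = 0.000319) and Il13 higher (log2 fold change 0.43, adjusted p = 0.0227). The list took 2.66 ± 0.0414% of the scaled counts of pre-basophils and 6.13 ± 0.651% of those of BM mature basophils. The 6-library fit with the block called 13 members lower and 6 higher, and library size alone 3 higher. Without BM mature replicate 2 or BaP replicate 3, 2 were higher.

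Cytokine receptors were called in 1 direction. Of 29 tested, 10 were lower in pre-basophils and 0 higher by edgeR, while the 6-library fit with the block called 12 lower and 4 higher and the fit without BaP replicate 3 11 and 2. Csf2rb, the β chain shared by the receptors for IL-3, IL-5 and GM-CSF, stood at 694, 669 and 699 CPM against 1273, 1247 and 1181 CPM, 1.79-fold lower (log2 fold change -0.84 ± 0.15, adjusted p = 0.000908), and its IL-3-specific paralogue Csf2rb2 was 1.90-fold lower at 248 ± 10.3 against 471 ± 14.7 CPM (adjusted p = 0.000307). Reads of these near-identical paralogues may have been split between them. Il3ra, the α chain of the IL-3 receptor, singled out after its values were seen, averaged 265 and 219 CPM (log2 fold change 0.28, adjusted p = 0.371) and was called higher in the fits of the 6 libraries, with adjusted p = 0.0381 without and 0.002 with the block. Il18rap, a chain of the IL-18 receptor, stood at 604 ± 1.93 against 1008 ± 24.7 CPM (log2 fold change -0.74 ± 0.09, adjusted p = 6.37e-05). Il7r, which also forms the TSLP receptor, was 3.92-fold lower at 36.7 ± 8.31 against 143 ± 13.7 CPM (adjusted p = 0.00479), and Il10ra, the IL-10 receptor, 5.54-fold lower at 6.58 ± 2.18 against 37.6 ± 3.99 CPM (adjusted p = 0.00202).

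Receptors for complement fell too. Of 14 pattern recognition and complement receptor genes tested, 5 were called lower and 1 higher, and 10 Toll-like and related members stayed under the filter. C3ar1, for the anaphylatoxin C3a, stood at 72.4, 60.9 and 66 CPM against 186, 193 and 198 CPM, 2.90-fold lower (log2 fold change -1.53 ± 0.13, adjusted p = 3.17e-06). C5ar1, for C5a, was 2.86-fold lower at 38.8 ± 4.19 against 111 ± 21.3 CPM (adjusted p = 0.000757). The single member called higher, Fpr2, rested on 2.49 ± 2.25 against 0.125 ± 0.216 CPM and lost its call without any 1 library except pre-basophil replicate 1, with adjusted p up to 0.217, and by limma-voom. Without pre-basophil replicate 1, 3 members were called lower, and without BaP replicate 3, 2 were higher. Of 27 inhibitory and paired receptors, 4 were called higher and 5 lower, within a few members of the 16.3% and 11.0% over all genes. Clec12a and Pilrb1 (5.12 ± 0.58 against 1.24 ± 0.285 CPM, adjusted p = 0.00112) had the largest changes of those called higher. Clec12a was used for the sort. Lilr4b and Lilrb4a, neighbouring leukocyte immunoglobulin-like receptor genes, stood at 2900 ± 136 against 7184 ± 924 CPM and at 1252 ± 36.1 against 2863 ± 289 CPM (log2 fold changes -1.31 ± 0.13 and -1.19 ± 0.12, adjusted p = 8.79e-06 and 1.32e-05). The pair is close in sequence and may share reads. Pirb, an inhibitory receptor for MHC class I, was 3.51-fold lower at 11.3 ± 3.8 against 40.6 ± 4.65 CPM (adjusted p = 0.0012). The 6-library fit with the block called 7 of these receptors higher and 8 lower.

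Genes of retention, egress and chemotaxis were called in both directions, more of them lower. Of 20 tested, 7 were called lower and 2 higher, against 11.0% and 16.3% over all genes, with a median log2 fold change of -0.67. Cxcr4, the receptor for CXCL12 that holds cells in the bone marrow, stood at 191, 122 and 192 CPM in pre-basophils and 96.7, 57.6 and 110 CPM in BM mature basophils, 1.91-fold higher without overlap (log2 fold change 0.93 ± 0.27, adjusted p = 0.0188). Cxcr2, which draws granulocytes out of it, stood at 58.4, 76.9 and 66.4 CPM against 158, 223 and 184 CPM, 2.80-fold lower (log2 fold change -1.49 ± 0.15, adjusted p = 1.38e-05). Ltb4r1, the receptor for leukotriene B4, was 2.07-fold higher at 83.9 ± 10.5 against 40.5 ± 4.97 CPM (adjusted p = 0.00268). The CC chemokine receptor genes Ccr2 and Ccr3 stood at 75.7 ± 12.3 against 202 ± 22.2 CPM and 5.11 ± 0.643 against 17.9 ± 4.52 CPM (log2 fold changes -1.41 and -1.80, adjusted p = 0.0331 and 0.0128), while Ccr1 stood at 205 ± 15.4 and 215 ± 12 CPM. Library size alone ended the Ccr2 call. The Cxcr4 call was lost without BM mature replicate 2 or pre-basophil replicate 1 or 3 (adjusted p up to 0.0834). That of Ccr2 was lost without any 1 of the 6 libraries (up to 0.114) and that of Ccr3 without BM mature replicate 3 (0.0503). These fits kept BaP replicate 3, which held 101 CPM of Ccr2 against 16.7 and 21.9 CPM in the other BaP libraries. Without BaP replicate 3 Cxcr4, Ccr2 and Ccr3 were each called (adjusted p = 0.004, 1.22e-07 and 1.81e-05). Without BM mature replicate 3 or pre-basophil replicate 2, 4 members were called lower, and the 6-library fit with the block called 13.

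Adhesion genes were split. Of 34 integrins, selectins and tetraspanins, 12 were called lower and 4 higher, against 11.0% and 16.3% over all genes. Their median of -0.15 turned to 0.07 with library size alone, under which 7 were lower and 8 higher. Itga2, the CD49b chain whose surface level rises in mature basophils, stood at 83.3, 97.6 and 72.9 CPM against 157, 201 and 161 CPM, 2.05-fold lower (log2 fold change -1.03 ± 0.21, adjusted p = 0.00277). Selplg, the selectin ligand PSGL-1, stood at 448 ± 15.8 against 722 ± 20.6 CPM (log2 fold change -0.69 ± 0.11, adjusted p = 0.000402), and Itgae, the CD103 integrin chain, at 1.89 ± 1.04 against 11.1 ± 1.07 CPM (log2 fold change -2.52 ± 0.37, adjusted p = 0.000236). Itgb3, the β3 integrin chain, was 3.07-fold lower (adjusted p = 0.0133), a call lost without pre-basophil replicate 1 (0.0555). BaP replicate 3 held 72.3 CPM of it against 11.7 and 18.4 CPM in the other BaP libraries. Leaving that library out gave Itgb3 an adjusted p of 2.74e-08. Itga2b, its platelet partner chain, stood at 541 ± 43.1 and 543 ± 29.8 CPM and was not called. Tetraspanins went both ways or were not called. Cd81 stood at 31.0, 32.1 and 36.9 CPM against 9.55, 10.3 and 9.55 CPM, 3.41-fold higher (log2 fold change 1.77 ± 0.21, adjusted p = 3.93e-05), Tspan31 was 2.53-fold higher (adjusted p = 0.00479) and Tspan32, singled out like the next after its values were seen, was also called higher (log2 fold change 1.28, adjusted p = 0.000421), while Cd82 was called lower (log2 fold change -0.87, adjusted p = 7.07e-05).

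Among 40 lineage transcription factors tested, 11 were called lower and 3 higher, against 11.0% and 16.3% over all genes. Myb, which keeps blood progenitors dividing, stood at 95.3, 65.7 and 75.8 CPM in pre-basophils and 17.5, 20 and 11.6 CPM in BM mature basophils, 4.86-fold higher (log2 fold change 2.28 ± 0.24, adjusted p = 1.98e-05). It stood at 175, 171 and 123 CPM in BaPs and averaged 6.45 CPM in mature basophils of the spleen. Hoxa9, another progenitor gene, was 7.02-fold higher on 1.86 ± 0.573 against 0.231 ± 0.202 CPM (adjusted p = 0.0133), a call lost without BM mature replicate 2 (0.0522). Runx1, needed for basophil development, was higher by 1.34-fold at 477 ± 5.5 against 355 ± 18.7 CPM, at the edge of the threshold (adjusted p = 0.049). It was not called without any 1 of the 6 libraries (up to 0.143), by DESeq2 or with 2 other scalings. Without BaP replicate 3 Runx1 was called (adjusted p = 0.000571). Without BM mature replicate 2, 1 member of the list stayed called higher, and without BaP replicate 3, 7 were. Its relative Runx2 stood at 77.4, 82.8 and 75.2 CPM against 200, 175 and 179 CPM, 2.35-fold lower (log2 fold change -1.23 ± 0.13, adjusted p = 1.88e-05). Nfil3, a basic leucine zipper factor, was 2.27-fold lower at 89.8 ± 19.9 against 204 ± 62.2 CPM (adjusted p = 0.00172). Gata2 and Ikzf2 were among the most abundant and not called (log2 fold changes -0.25 and -0.22, adjusted p = 0.378 and 0.155), though both were lower in the 6-library fit with the block (adjusted p = 0.00139 and 0.00276), which called 19 members lower and 6 higher. With library size alone the median of the list turned from -0.17 to 0.06, with 7 lower and 6 higher.

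The immediate-early and stress response list was called in 1 direction. Of 46 tested, 23 were lower in pre-basophils and 0 higher by edgeR, with a median log2 fold change of -0.81. Zfp36, which marks cytokine mRNAs for decay, stood at 4052, 4628 and 4827 CPM in pre-basophils and 16170, 13499 and 16417 CPM in BM mature basophils, 3.41-fold lower (log2 fold change -1.77 ± 0.14, adjusted p = 2.08e-06). Jun, a subunit of AP-1, stood at 5638, 7609 and 7332 CPM against 16156, 16228 and 17019 CPM (log2 fold change -1.26, adjusted p = 8.87e-05). Junb was 2.86-fold lower at 3374 ± 260 against 9635 ± 460 CPM (adjusted p = 4.47e-06), Egr1 2.31-fold lower at 5695 ± 109 against 13172 ± 1099 CPM (adjusted p = 0.000264) and Fosb 2.17-fold lower at 12355 ± 1734 against 26763 ± 5788 CPM (adjusted p = 0.0026). Ier5 had the largest called change of the list, 3.99-fold lower at 207, 297 and 308 CPM against 990, 1072 and 1183 CPM (log2 fold change -2.00 ± 0.22, adjusted p = 2.23e-05). Nfkbia, the inhibitor of NF-κB, was 1.52-fold lower (6555 ± 122 against 9990 ± 758 CPM, adjusted p = 0.0213), a call lost without any 1 library except BM mature replicate 2 (up to 0.0791) and with DEGES scaling. Leaving out single libraries gave 17 to 25 lower, and the 6-library fit with the block 35 lower and 5 higher.

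Summed, the list held 7.87%, 7.39% and 8.72% of the scaled library size in the pre-basophil libraries and 17.6%, 13.6% and 17.5% in the BM mature libraries, without overlap. In BaPs Zfp36 stood at 1730, 2251 and 2127 CPM and Jun at 3799, 4968 and 3498 CPM, and in mature basophils of the spleen they averaged 17307 and 26262 CPM. Genes of this list also respond to the handling of living cells during dissociation and sorting, and the part of handling in these values was not tested.

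**Figure D4:**
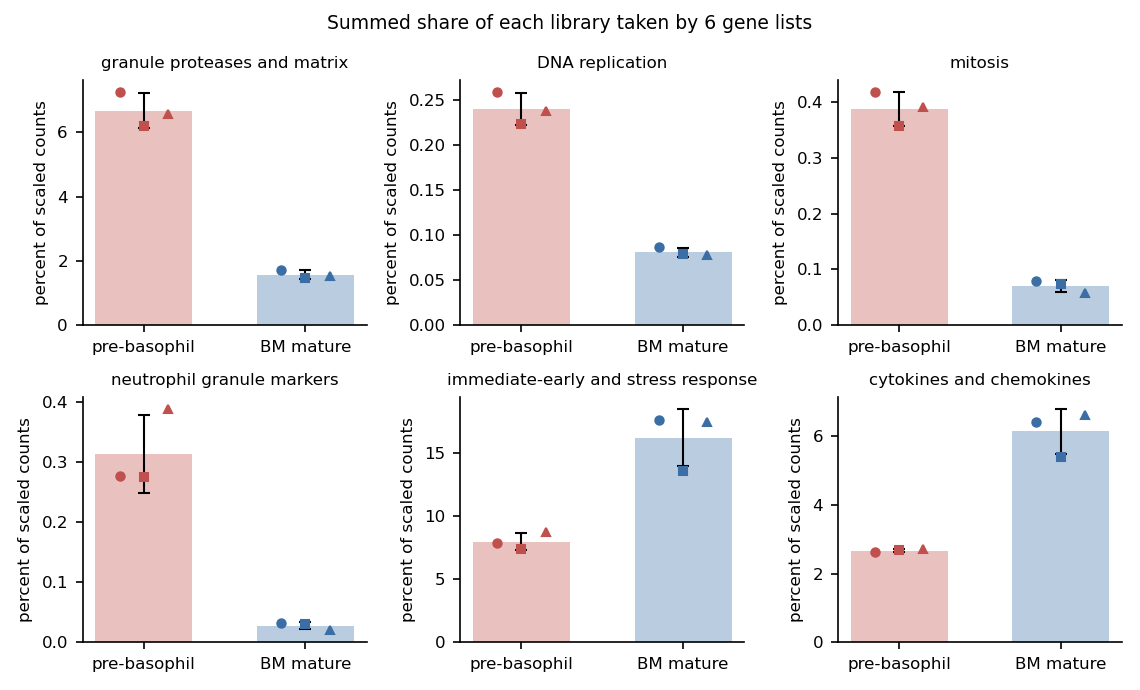
Summed counts of 6 gene lists in each library, in percent of the scaled library size (counts of the tested genes times the TMM factor). Points are the 3 libraries of a group, bars the mean and lines 1 SD, with all axes starting at 0, and the groups do not overlap on any panel: granule, replication, mitosis and neutrophil genes are higher in pre-basophils, and immediate-early and cytokine genes are lower.

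Promoters of 3 of these genes are shown beside those of the cell cycle, from the 4 members with the largest called fold changes whose window held a motif. The 150 bases before the RefSeq start (GRCm38.p6, 5′ to 3′) lie at chr1:155099637-155099786 (Ier5), chr8:84978749-84978898 (Junb) and chr7:45526269-45526418 (Ppp1r15a, the stress-induced regulator of eIF2α), all on the minus strand. Capitals mark the CHR letters, the CCAAT box (ATTGG on the other strand) and the cyclic AMP response element TGACGTCA.
Ier5: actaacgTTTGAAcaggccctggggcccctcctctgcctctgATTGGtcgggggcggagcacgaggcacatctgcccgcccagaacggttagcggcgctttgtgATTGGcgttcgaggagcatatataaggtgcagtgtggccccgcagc
Junb: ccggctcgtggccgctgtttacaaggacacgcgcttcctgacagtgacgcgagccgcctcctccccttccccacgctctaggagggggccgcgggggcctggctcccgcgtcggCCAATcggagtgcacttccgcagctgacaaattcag
Ppp1r15a: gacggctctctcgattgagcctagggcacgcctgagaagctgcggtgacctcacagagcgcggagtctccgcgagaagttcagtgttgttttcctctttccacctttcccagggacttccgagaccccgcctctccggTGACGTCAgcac
The full element TGACGTCA was found in 7.69% of the 52 windows of the immediate-early list and in 2.47% of those of all tested genes, and its shorter form TGACGT, which lies inside it, in 26.9% and 9.72%. The AP-1 motif TGANTCA was found in 5.77% of the windows of this list, in 23.1% of the 26 windows of the cytokine and chemokine list and in 4.93% of all. In the windows of all genes called lower, TGACGTCA was found in 2.18%, TGACGT in 7.76% and TGANTCA in 5.24%. These shares too are a description only. Ppp1r15a itself was 2.48-fold lower in pre-basophils, with 950, 985 and 1016 CPM against 2504, 2291 and 2518 CPM (log2 fold change -1.31 ± 0.13, adjusted p = 9.28e-06).

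Survival genes were called in both directions. Of 29 survival and death genes, 7 were called higher and 3 lower, against 16.3% and 11.0% over all genes. Bcl2, which blocks apoptosis, stood at 36.6, 53.1 and 42.1 CPM in pre-basophils and 24.5, 18.5 and 22.3 CPM in BM mature basophils, 2.02-fold higher (log2 fold change 1.02 ± 0.23, adjusted p = 0.00522). Bik, a BH3-only death gene, was higher on low levels of 2.92 ± 1.05 against 0.296 ± 0.321 CPM (adjusted p = 0.00834). Pim1, a survival kinase induced by cytokines, was 1.77-fold lower at 398 ± 52.4 against 704 ± 163 CPM (adjusted p = 0.00146). Mcl1 differed more by replicate than by group, with 367, 329 and 908 CPM against 670, 480 and 1593 CPM (adjusted p = 0.201), and was called lower once the replicate number entered the fit of all libraries as a block (log2 fold change -0.75, adjusted p = 0.0297). The counts of this list rested on single libraries: with each of the 6 left out in turn 2 to 4 members were higher, the lowest without pre-basophil replicate 1, and 1 was lower without BM mature replicate 3 or pre-basophil replicate 2. DESeq2 called 4 higher, and 10 were lower in the 6-library fit with the block and 7 without BaP replicate 3.

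Metabolic and antigen presentation genes had no common direction. Of 21 glycolysis genes, 6 were called higher and 5 lower, against 16.3% and 11.0% over all genes. Among the lower ones were the glucose transporter gene Slc2a3 (299 ± 36.1 against 624 ± 173 CPM, adjusted p = 0.00148) and Aldoa, aldolase A (468 ± 8.43 against 839 ± 22.5 CPM, adjusted p = 0.000402). Slc16a1, a lactate transporter, was higher by 3.46-fold (adjusted p = 0.0124), a call lost without BM mature replicate 2 or pre-basophil replicate 1 (up to 0.0628) and by limma-voom. Of 18 MHC and antigen presentation genes, 3 were called higher and 3 lower, near the 16.3% and 11.0% over all genes. The class II gene H2-Ab1 was 2.41-fold higher at 23.5 ± 0.974 against 9.62 ± 2.14 CPM (adjusted p = 0.000802), and the class I gene H2-D1 1.69-fold lower at 1842 ± 213 against 3116 ± 487 CPM (adjusted p = 0.00157). Cd86, a costimulatory ligand, was 2.91-fold lower at 3.62 ± 0.698 against 10.7 ± 1.36 CPM (adjusted p = 0.000531). B2m, the light chain of class I, stood at 1237 ± 188 and 940 ± 182 CPM and was called higher with the block (adjusted p = 0.0304 with all libraries) and without BaP replicate 3 (adjusted p = 0.0248).

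Markers of most other cell types were low in both groups. The summed shares of the B cell, T and NK cell, and monocyte and macrophage lists were 0.00522%, 0.0229% and 0.0186% in pre-basophils and 0.0062%, 0.0124% and 0.0248% in BM mature basophils. Those of the erythroid, eosinophil, megakaryocyte and dendritic cell lists were 0.00897%, 0.031%, 0.0556% and 0.00707% against 0.0216%, 0.0384%, 0.0617% and 0.00746%. Of 11, 12, 12, 8, 7, 8 and 5 members tested in the same order, 1, 1, 1, 2, 0, 1 and 0 were called higher and 0, 0, 2, 0, 2, 0 and 0 lower. Over all genes 16.3% were called higher and 11.0% lower, and lists this short allow no reading of the counts. Single libraries decided some: with each of the 6 left out, 0 to 1 monocyte markers stayed lower, 1 eosinophil marker without BM mature replicate 3, and 0 megakaryocyte markers were higher without BM mature replicate 2 or 3 or pre-basophil replicate 1 or 2. The T and NK list rested on Nkg7, a granule protein gene of killer cells, which stood at 219, 190 and 203 CPM against 62.7, 58.8 and 77.3 CPM (log2 fold change 1.62 ± 0.17, adjusted p = 1.53e-05) and stood at 428, 326 and 485 CPM in BaPs. The globin genes went the other way: Hba-a1 stood at 10.9, 11.2 and 7.84 CPM against 51.9, 49.1 and 41 CPM, without overlap, but was not called on the spread of all libraries (adjusted p = 0.276). BaP replicate 3 decided this: it held 518 CPM against 0.956 and 0.707 CPM in the other BaP libraries, and without it Hba-a1 was called lower (adjusted p = 0.000188), with 4 erythroid, 8 T and NK, 4 megakaryocyte, 2 B cell and 1 dendritic cell markers called lower in pre-basophils and 3 monocyte and 1 eosinophil markers higher. In the 6-library fit with the block it was called too (log2 fold change -2.27, adjusted p = 7.64e-14), and 4 erythroid, 4 T and NK, 3 B cell and 2 megakaryocyte markers were lower. The platelet gene Pf4 was uneven in BM mature basophils, at 110 CPM in replicate 1 against 21 and 15 CPM in the others. All of these lay above the 1.95 to 8.11 CPM of pre-basophils, and the log2 fold change was -4.00 to -2.02 with each library left out. Pf4 was not called (adjusted p = 0.0609), but was without BaP replicate 3 (adjusted p = 0.000412), which held 104 CPM against 0.717 and 3.3 CPM in the other BaP libraries. Of 4 mast cell markers tested, 2 were called higher and 0 lower, and the list summed to 0.367% against 0.284%. Those called were Cpa3 and Kit, both described above, while the abundant Gata2 (log2 fold change -0.25) and the remaining member were not called. The Kit call was lost without BM mature replicate 1 or 3 or pre-basophil replicate 1 or 2 (adjusted p up to 0.179). A further 4 of the 8 in the table (Mcpt4, Cma1, Tpsb2 and Mrgprb1) did not reach the filter. Mitochondrially encoded genes held 1.55 ± 0.0973% and 1.44 ± 0.0973% of the scaled library size, and 1.53% to 1.64% against 1.19% to 1.31% of raw counts.

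Several of the genes with the largest fold changes toward BM mature basophils were on none of the lists described so far. Cldn1, a tight junction claudin, stood at 0, 0.487 and 1.12 CPM against 22.6, 14.5 and 27.1 CPM (log2 fold change -5.04 ± 0.64, adjusted p = 7.51e-05), and the pre-basophil values lay near the level of 3 counts. Wdr95, a WD repeat gene, stood at 3.07, 2.19 and 7.04 CPM against 116, 101 and 105 CPM, 24.3-fold lower (adjusted p = 8.51e-06). Cd7, an immunoglobulin-family receptor best known on T and NK cells, stood at 101, 128 and 138 CPM against 1044, 1035 and 1097 CPM, 8.63-fold lower (log2 fold change -3.11 ± 0.65, adjusted p = 0.00303), and DESeq2 gave it no adjusted p. Mapk12, the p38γ kinase, was 7.24-fold lower with little spread (9.73 ± 1.18 against 71 ± 0.916 CPM, adjusted p = 8.48e-07). Fabp5, a fatty acid binding protein, was 5.79-fold lower at 10.1, 9.25 and 10.7 CPM against 52.2, 57.6 and 64.6 CPM (adjusted p = 1.8e-06), Nxpe4 5.69-fold lower at 17 ± 0.78 against 96.6 ± 7.06 CPM (adjusted p = 7.83e-07) and Bmp7, a bone morphogenetic protein, 5.19-fold lower at 3.36 ± 0.417 against 17.8 ± 0.99 CPM (adjusted p = 0.00112). In mature basophils of the spleen Wdr95, Cd7, Mapk12 and Fabp5 averaged 200, 1440, 120 and 77 CPM. In BaPs Wdr95 stood at 2.63, 2.83 and 11.5 CPM and Cd7 at 19.8, 20.3 and 213 CPM, with the highest value of both in replicate 3.

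On the other side most of the largest changes were of listed genes. Of the 15 largest rises among genes reaching 10 CPM in the higher group, those outside the neutrophil, mitosis and replication lists were Pimreg, Troap and Kif4, which act on the mitotic spindle or chromosomes, Ifitm6 and Gm11223. Pimreg stood at 18.4, 16.6 and 22.5 CPM against 0.955, 0.501 and 1.12 CPM, 21.4-fold higher (log2 fold change 4.42 ± 0.39, adjusted p = 4.47e-06). Gm11223, a processed pseudogene whose reads may belong to a parent gene, stood at 99.3 ± 17.3 against 6.84 ± 1.08 CPM (adjusted p = 1.77e-06). Ptma, prothymosin α, stood at 2591, 2121 and 2291 CPM against 1035, 784 and 887 CPM (log2 fold change 1.37 ± 0.18, adjusted p = 0.000123). Anxa1, annexin 1, was 2.17-fold higher at 1568 ± 454 against 724 ± 148 CPM (adjusted p = 0.0147), a call lost without BM mature replicate 2 or pre-basophil replicate 1 (up to 0.0747). A further 6 genes called higher had 0 counts in all 3 BM mature libraries. The best covered were Ly6a2 with 78 counts over the pre-basophil libraries, Car13 with 35 and Crispld2 with 33.

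Among noncoding genes the long intergenic and antisense classes had more calls lower than higher, and pseudogenes did not. Of 563 long intergenic noncoding RNA genes tested, 3.37% were called higher in pre-basophils and 12.6% lower, and of 319 antisense genes 3.45% and 10.3%, against 18.1% and 11.5% of 11542 protein-coding genes. Of 1595 processed pseudogenes, 13.3% were higher and 7.52% lower. AC160336.1, the most abundant noncoding RNA gene among those called, held 6640, 6863 and 7462 CPM against 13201, 12136 and 14054 CPM, 1.88-fold lower (log2 fold change -0.91 ± 0.14, adjusted p = 0.000268). B630019A10Rik, annotated as antisense, was 5.19-fold lower at 6.99, 8.52 and 7.20 CPM against 31.5, 45.8 and 40.2 CPM (adjusted p = 2.95e-06). Xist, the X inactivation RNA, was an exception among the abundant ones, 1.59-fold higher with 1368, 1322 and 1379 CPM against 856, 849 and 858 CPM (log2 fold change 0.67 ± 0.10, adjusted p = 0.000235). The sources used here do not say whether counting used strand, so reads of antisense genes and of their partners cannot be told apart.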

How the data were processed

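The deposited table held raw read counts per gene for each library, without normalization. The authors lysed sorted cells, amplified the cDNA, sequenced it on a NovaSeq, trimmed reads with Cutadapt 3.4 and mapped them with Bowtie2 2.4.2 to reference transcripts. The methods name GRCm38 and the submitters' processing notes GRCm39, so coordinates were taken from annotation by gene name and not from the table. Use of strand and of multiply mapped reads in counting is not stated, so values of antisense genes and close paralogues are uncertain, and without molecular identifiers counts are not independent molecules.

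Genes were filtered with filterByExpr, scaled by TMM and fitted with edgeR 4.0.16 (R 4.3.3) by the quasi-likelihood test over all 12 libraries, and p-values were adjusted by Benjamini-Hochberg over 15083 genes. A gene was called at adjusted p under 0.05, and every adjusted p in the text comes from this fit unless another is named. SE was the absolute log2 fold change divided by the square root of F. DESeq2 1.42.0, limma 3.58.1 (voom), other scalings, filters and each library left out were alternatives. A fit without BaP replicate 3 was added after the data were seen. The permutation test planned on summed list shares is not reported, since the lists were chosen with results known. The authors' own test package (TCC) was not used here. The replicates are pools from the labels, and p-values measure the spread between them, which may be technical. Deviations from the group mean correlated between the 2 groups at r = 0.138, 0.153 and 0.223 for the same replicate number (across genes, which are not independent replicates). The values for different numbers, -0.0356 to -0.117, add nothing to this, since deviations within a group sum to 0. A block on the numbers as pairs was fitted as an alternative, and the main fit was unpaired.

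The members, markers and the 31 gene lists were chosen with earlier results of these data known. Named genes were the sort markers, the 15 largest changes and the 10 most abundant called genes in each direction, and for each list the 3 most abundant members and the 2 largest and 2 smallest called changes, with promoter genes chosen by fold change and motif. Other genes named in the text (Il4, Il13, Il3ra, Tspan32, Cd82, the uncalled replication and mitosis members, and genes at 0 counts in BM mature libraries) were chosen after their values were seen. List members that the table did not hold (Ccl1, Ccl7, Tpsab1, Mcpt5, Mcpt6, Mrgprb2 and Ptgdr2) were not analysed here.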

Additional observations from a re-analysis of the deposited data

How the results depend on the processing

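The main count of 4112 called genes stayed within 1.5 times under most alternatives, and every gene called both here and under an alternative had the same direction. It was 6225 in the fit of the 6 libraries with the replicate block (2948 lower) and 1219 in a test against a 1.5-fold change (916 higher, 303 lower, 1144 at 2-fold or more). Library size alone gave 3703 higher and 784 lower, and a filter of at least 10 CPM gave 1173 at 2-fold or more, since fewer genes were tested. With each of the 6 libraries left out in turn, 1070 to 1257 genes were called lower. The cause of the other differences was not tested. The replicate block over all 12 libraries ended the call of 1 named gene, Gp1ba (adjusted p = 0.0562), and added 4, B2m and Mcl1 (both given above), F13a1 (adjusted p = 0.0371) and Nlrp3 (adjusted p = 0.0159). It changed no other call of a named gene. The fit of the 6 libraries added 17 named calls without the block and 25 with it, and leaving out BaP replicate 3, an alternative chosen after seeing the data, added 15 and ended 0 of those tested in it, with 2330 genes called lower. Scaling by library size alone ended 11 named calls and limma-voom 8. Depth limits genes near 3 counts, which were worth 0.48 to 0.955 CPM.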
